A study of Mus musculus with 6 samples.

Results

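A set of 39 sarcomere and skeletal muscle contractile genes was followed in mouse hearts under 2 diets. They were chosen by name, and every array probe other than a control whose gene name equals a member was taken, which gave 57 of the 55681 probes. The array design holds 36163 gene names in all. The 39 genes were classed by textbook use as 10 cardiac isoforms, 18 isoforms of skeletal muscle and 11 sarcomere genes that both muscles share. These classes are not exclusive, since genes of the cardiac class such as Tnnc1 and Myoz2 also serve slow skeletal fibres. The hearts came from male C57BL/6 mice put at 4 weeks of age on either a standard chow (normal diet, ND) or a high fat diet (HFD) with 60% of its kcal as fat, and taken after 4 months of feeding. Each of the 3 ND- and 3 HFD-fed mouse hearts gave total RNA for 1 single-colour Agilent array. The labels name no transgene or deletion for either group, and which chambers were sampled and what the chow contained are not given in the sources used here.

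The sarcomere is the repeating unit of striated muscle in which myosin filaments pull on actin filaments. Calcium starts contraction by binding troponin C, which moves troponin I and troponin T and, with them, tropomyosin along the actin filament. Most of these proteins are encoded by paralogous genes, 1 set used by adult heart and others by slow or fast skeletal fibres, and the heart uses some of the skeletal or fetal forms during development or under load.

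The gene expression levels below are log2 intensities relative to the 75th percentile of the array, so that 0 is that percentile, and they are compared between hearts for 1 probe and not between probes. A log2 fold change is the HFD mean minus the ND mean. Each array had between 27416 and 29503 probes (49.2% to 53.0%) well above background, and no spot was saturated. The slide was the same for all 6 arrays, but row 1 held HFD 1 and HFD 2 while row 2 held HFD 3 and the 3 ND hearts, so only HFD 3 can be compared with ND within a row (1 heart, assumed to vary like the others). The markers of ventricular and general cardiomyocytes, such as Myh6, Myl2 and Actc1, were well above background in all 6 hearts (12 of 12 genes), and their median log2 fold change was 0.06. Of 21 other skeletal muscle genes on the array, 11, such as Casq1, Pvalb and Myf6, were well above background in all 6 hearts. Another 6 (Myod1, Myog, Myf5, Chrng, Chrnd and Smtnl1) were well above background in none. In whole-tissue RNA, fewer cells of a type and less RNA per cell cannot be told apart.

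Several probes of the troponin genes cross an exon junction, so that their full length matches spliced RNA. Whether unspliced RNA adds to their signal was not tested. Those of cardiac troponin T, fast skeletal troponin T and cardiac troponin C are shown. The isoform comparison also rests on the Tnnt1 and Tnnc2 probes, which lie in 1 genomic block, cross no junction and are not shown. Each is given 5′ to 3′ as the array files list it, and no base is capitalised.
Tnnt2 probe: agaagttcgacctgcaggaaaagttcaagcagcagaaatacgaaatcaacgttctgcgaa
Tnnt3 probe: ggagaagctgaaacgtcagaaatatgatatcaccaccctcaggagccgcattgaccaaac
Tnnc1 probe: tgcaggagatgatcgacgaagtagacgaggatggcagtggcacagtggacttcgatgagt
On mm9, the Tnnt2 probe spans chr1:137747976-137748288 on the + strand, the Tnnt3 probe chr7:149698500-149700262 on the + strand and the Tnnc1 probe chr14:32023360-32023776 on the + strand. Each holds 60 bases of a longer genomic stretch (313, 1763 and 417 bases), which leaves an intron in between. In their best ungapped overlap, the Tnnt2 and Tnnt3 probes shared 29 of 44 bases. Of the 57 probes, 11 cross a junction in this way and the other 46 lie in 1 genomic block.

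No member probe passed the Benjamini-Hochberg adjustment over all 27590 probes tested with limma (lowest adjusted p = 0.0887, Tnnt1), where 4 of all probes did (0.0145%). At the unadjusted limit of 0.05 that the methods state, 7 of the 48 member probes tested were lower in HFD (14.6%) and 0 were higher, against 6.63% lower and 5.24% higher over all probes. The 7 were the skeletal troponins Tnnt1, Tnnc2 and Tnni2, the skeletal myosin-binding protein Mybpc2, cardiac troponin C (Tnnc1), the Z-disc calsarcin Myoz2 and muscle creatine kinase (Ckm). The diets did not overlap for 8 member probes that were lower in HFD (16.7%) and 0 that were higher, against 11.1% and 7.92% of all probes. In 34 genes with a tested probe, 28 had a log2 fold change below 0 and 6 above, with a median of -0.14. Of all probes tested, 52.0% were below 0, with a median of -0.01. A higher call appeared with the slide row as a covariate (6 lower and 1 higher, Myoz1), without ND 2 (6 and 1, Nebl) and without HFD 1 (5 and 2, Myoz1 among them). Without ND 1 the unadjusted count was 3 of the members, without HFD 3 it was 4, and the 3 that remained at every omission of 1 heart were Tnnt1, Tnnc2 and Tnnc1.

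**Figure D1:**
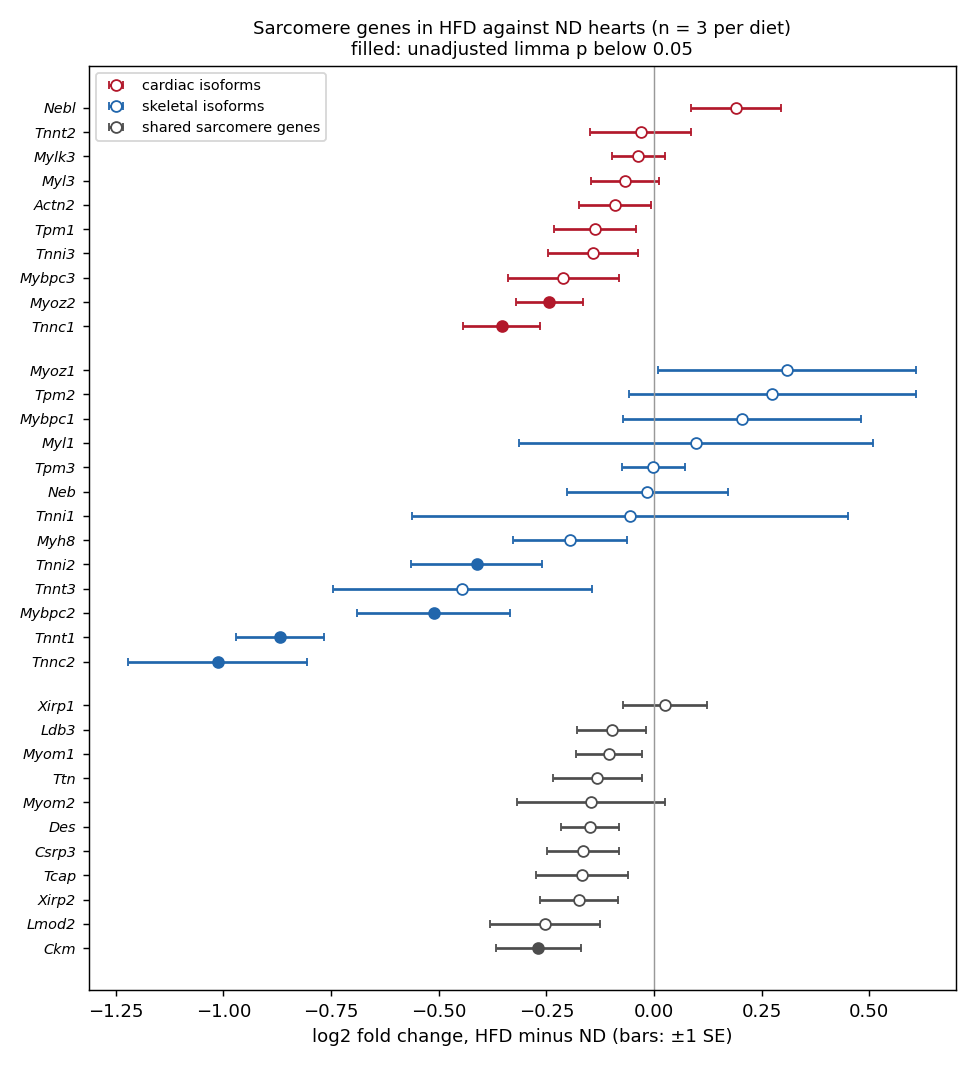
Log2 fold change (HFD minus ND, bars 1 SE, n = 3 hearts per diet) of the brightest tested probe of 34 genes, by isoform class, with filled points at an unadjusted limma p below 0.05. The cardiac and shared genes lie within -0.35 and 0.19, and the skeletal genes spread from -1.01 to 0.31.

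The median log2 fold change was -0.11 for the 10 cardiac isoforms (range -0.35 to 0.19, 9 lower and 1 higher) and -0.06 for the 13 skeletal isoforms with a tested probe (range -1.01 to 0.31, 9 lower and 4 higher). The 11 shared genes had a median of -0.15 (range -0.27 to 0.03, 10 lower and 1 higher). The skeletal and cardiac medians were 0.06 apart, and the skeletal values reached further from 0 on both sides, a description for which no test was made. The median size of a change, regardless of sign, was 0.27 for skeletal, 0.14 for cardiac and 0.15 for shared genes, against 0.11 over all probes tested. The skeletal class also holds dim probes (Tnni1, Tnnt3, Myoz1 and Mybpc1) with an SE of 0.28 to 0.51, while the SE of the cardiac genes was 0.06 to 0.13. The part of this noise in the wider skeletal spread was not tested. At the unadjusted limit, 4 of 18 skeletal probes tested (22.2%), 2 of 15 cardiac (13.3%) and 1 of 15 shared (6.67%) were lower. The share over all probes tested was 6.63%, so the shared genes lay near it. The mean of the skeletal minus that of the cardiac genes, each centred on its ND mean, was 0.05 in HFD 1, -0.44 in HFD 2 and 0.12 in HFD 3, while the ND hearts lay between -0.04 and 0.04. HFD 2 thus stood below the ND hearts and the other HFD hearts above them, and without HFD 1 the difference of the medians, 0.06 with all hearts, became -0.26. The sign of that difference also turned with quantile normalization (-0.0812), with no filter on dim probes (-0.0737) and with averaged probes (-0.0738).

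Slow skeletal troponin T (Tnnt1), the tropomyosin-binding subunit of slow fibres, had the lowest p among the members. Its level was 3.92, 4.13 and 4.10 in ND 1 to 3 and 3.34, 3.08 and 3.13 in HFD 1 to 3. Every HFD heart was below every ND heart, and the gap between the diets was wider than the spread within either. The log2 fold change was -0.87 ± 0.10 (SE, n = 3 per diet), or 54.8% of the ND level (limma, adjusted p = 0.0887), which ranked 44 among all probes tested. Within row 2 of the slide, HFD 3 against ND gave -0.92, which also passed the unadjusted limit. The adjusted p fell below 0.05 under normexp (0.0273) and under robust variances with an intensity trend (0.0176), and over all alternatives it lay between 0.0176 and 0.397.

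Fast skeletal troponin C (Tnnc2), the calcium sensor of fast fibres, gave -1.24, -0.95 and -1.73 in the ND hearts and -2.38, -2.43 and -2.14 in the HFD hearts. All HFD values were lower, although ND 3 lay nearer to the HFD hearts than the other ND hearts did. The probe was dim, with intensities of 144 to 251 in ND and 83.9 to 123 in HFD hearts. The log2 fold change was -1.01 ± 0.21 (SE, n = 3 per diet), or 49.5% of ND (limma, adjusted p = 0.207), and within row 2 it was -0.84, past the unadjusted limit as well. Cardiac troponin C (Tnnc1), which serves heart and slow fibres alike, was 7.75, 7.66 and 7.61 in ND and 7.28, 7.46 and 7.22 in HFD hearts. These diets were also apart, by less than for Tnnc2, at -0.35 ± 0.09 (SE, n = 3 per diet; limma, adjusted p = 0.261) and -0.45 within row 2.

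The inhibitory subunit of fast fibres, Tnni2, was 1.40, 1.30 and 1.69 in ND and 1.20, 0.80 and 1.15 in HFD hearts. The diets did not overlap, with a gap between ND 2 and HFD 1 that was smaller than the spread within either diet. The log2 fold change was -0.41 ± 0.15 (SE, n = 3 per diet; limma, adjusted p = 0.387). The unadjusted call was lost without ND 1, ND 3, HFD 2 or HFD 3, as it was within row 2 (-0.31), with the methods' t-test and with no filter on dim probes. Cardiac troponin I (Tnni3) was 7.98, 7.96 and 8.21 in ND and 7.82, 8.05 and 7.86 in HFD hearts, and the diets overlapped (-0.14 ± 0.10, SE, n = 3 per diet, adjusted p = 0.652). Slow skeletal troponin I (Tnni1), which the fetal heart also expresses, was -3.88, -3.10 and -3.51 in ND and -2.95, -4.70 and -3.00 in HFD hearts. HFD 2 alone was not well above background for Tnni1, and it was the lowest of the 6 while HFD 1 and HFD 3 were the highest. Its log2 fold change of -0.06 ± 0.51 (SE, n = 3 per diet, adjusted p = 0.979) became 0.52 without HFD 2 and 0.14 without ND 2.

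The cardiac troponin T, Tnnt2, was 8.71, 8.92 and 8.71 in ND and 8.86, 8.84 and 8.55 in HFD hearts, a difference of -0.03 ± 0.12 (SE, n = 3 per diet, adjusted p = 0.944) that changed sign with quantile normalization. The fast skeletal Tnnt3 was -2.65, -2.52 and -3.57 in ND and -3.08, -3.50 and -3.50 in HFD hearts. For it ND 3 was the lowest of all 6 hearts, and the log2 fold change was -0.44 ± 0.30 (SE, n = 3 per diet, adjusted p = 0.623). Without ND 3 it was -0.77 and passed the unadjusted limit. A second Tnnt3 probe overlaps the first in genomic position, so it is not an independent measurement. It gave -2.72, -2.41 and -3.54 in ND and -3.12, -3.87 and -4.13 in HFD hearts, again with a low ND 3. Its log2 fold change was -0.81 ± 0.37 (SE, n = 3 per diet, adjusted p = 0.467).

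**Figure D2:**
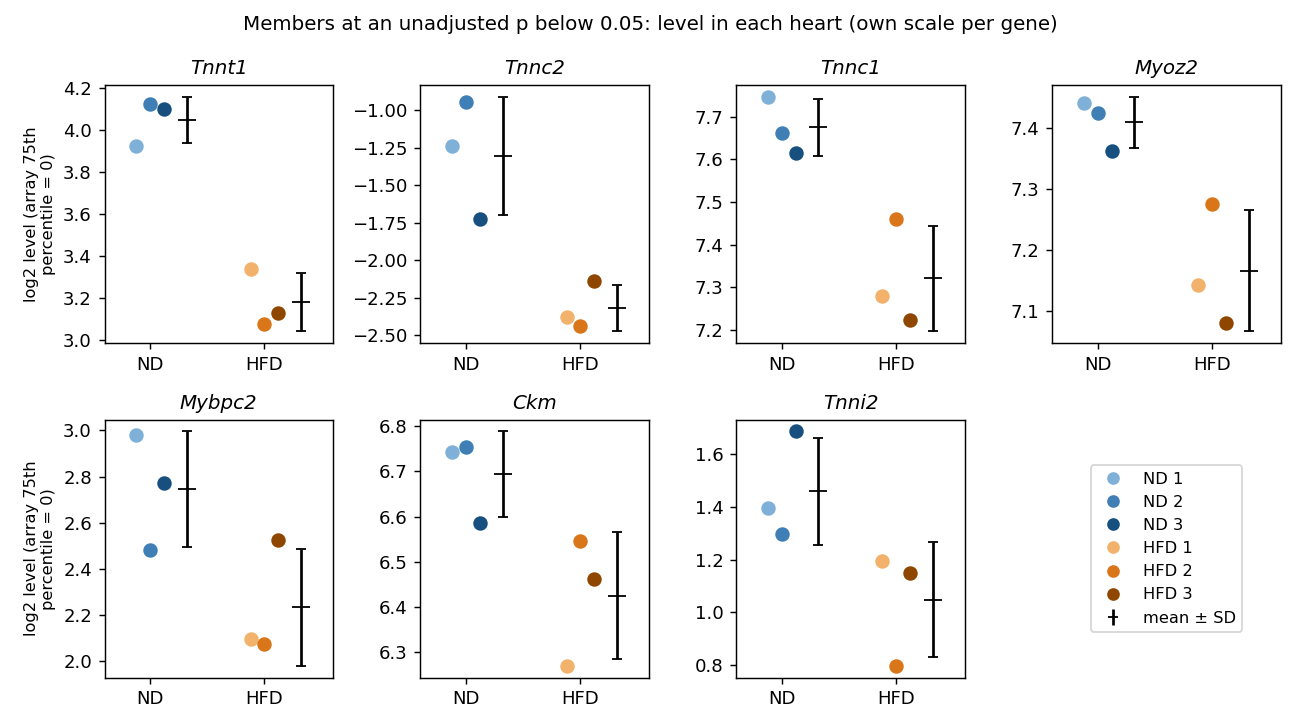
Log2 level (75th percentile of the array = 0) of the 7 members at an unadjusted p below 0.05 in each heart, with the mean ± SD per diet (n = 3) and a scale of its own for each gene. The HFD hearts lie below the ND hearts without overlap except for Mybpc2, where HFD 3 (2.53) lies above ND 2 (2.48).

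The troponin I and troponin T genes lie next to each other in pairs in the mouse genome, which allows close neighbours to be set side by side. Between the probes on mm9, the slow skeletal Tnnt1 was 15.7 kb from the cardiac Tnni3 on chromosome 7, and the log2 fold changes were -0.87 and -0.14. The fast skeletal Tnni2 and Tnnt3 were 68.2 kb apart on the same chromosome, with -0.41 and -0.44. Tnni1 and Tnnt2, 41.8 kb apart on chromosome 1, gave -0.06 and -0.03. Thus the member with the lowest p neighboured a gene whose diets overlapped, and no test of these pairs was made.

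To set skeletal against cardiac isoforms within each heart, the log2 ratio of the paralogs was taken on the same array for 12 of 13 pairs (Actn3 was not tested). The ratio of Tnnt1 to Tnnt2 was -4.79, -4.80 and -4.60 in ND and -5.52, -5.76 and -5.42 in HFD hearts. It did not overlap between the diets and changed by -0.84 on the log2 scale, to 56.0% of ND. The ratio of Tnnc2 to Tnnc1 was -8.98, -8.61 and -9.34 in ND and -9.65, -9.89 and -9.36 in HFD hearts, a change of -0.66 to 63.3% of ND, and ND 3 and HFD 3 were nearly equal. Both pairs gave an exact two-sided permutation p of 0.10, the smallest that 3 against 3 hearts allow, and 0.60 after Benjamini-Hochberg adjustment over the 12 pairs. Among the other 10 pairs the diets overlapped, 4 changes were below 0 and 6 above, and they ranged from -0.41 (Tnnt3 to Tnnt2) to 0.55 (Myoz1 to Myoz2). In normexp values only 1 pair was free of overlap, and without HFD 2 it was 5. With normexp the Tnnc2 to Tnnc1 ratio changed by -0.36 with an exact permutation p of 0.20, so its diets overlapped. The log2 fold change of Tnnc2 by itself was then -0.73.

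**Figure D3:**
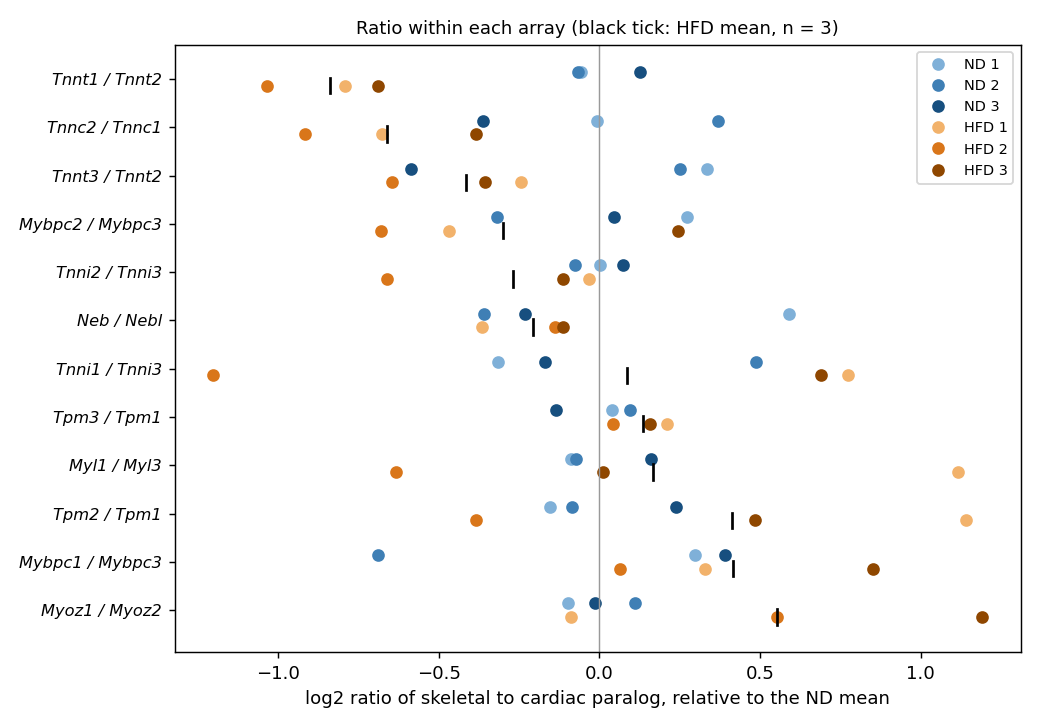
Log2 ratio of a skeletal to a cardiac paralog within each array, relative to the ND mean of that pair, for 12 pairs and 6 hearts, with a black tick at the HFD mean (n = 3). For Tnnt1 to Tnnt2 and Tnnc2 to Tnnc1 every HFD heart lies left of every ND heart, and HFD 2 lies far left for Tnni1, Myl1 and Tpm2 where HFD 1 lies right.

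Among thick filament genes 1 member reached the unadjusted limit. Fast skeletal myosin-binding protein C (Mybpc2) was 2.98, 2.48 and 2.77 in ND and 2.10, 2.08 and 2.53 in HFD hearts. HFD 3 overlapped the ND hearts, and the log2 fold change was -0.51 ± 0.18 (SE, n = 3 per diet; limma, adjusted p = 0.363). Within row 2 it was -0.22, and the unadjusted call was lost there, with the methods' t-test, with array weights and without ND 1, ND 3, HFD 1 or HFD 2. The cardiac Mybpc3, a frequent site of mutations in hypertrophic cardiomyopathy, changed by -0.21 ± 0.13 (SE, n = 3 per diet, adjusted p = 0.588), and the slow skeletal Mybpc1 by 0.20 ± 0.28 (SE, n = 3 per diet, adjusted p = 0.816). Within row 2 the Mybpc3 change was larger in size, at -0.46, and that of Mybpc1 was 0.39. The ventricular light chain Myl3 gave -0.07 and the cardiac myosin light chain kinase Mylk3 -0.04. The fast skeletal myosins Myh1, Myh2 and Myh4 and the fast light chain Mylpf were well above background in at most 2 of the 6 hearts and were not tested, like the fast fibre alpha-actinin Actn3. The neonatal myosin Myh8 was well above background in all 6 hearts (-0.19 ± 0.13, SE, n = 3 per diet, adjusted p = 0.624). The genes of its cluster are near copies of each other, and a probe may take up RNA of another, although the Myh1, Myh2 and Myh4 probes were dim. The ND mean was 7.24 for this Myh8 probe and 1.52 for a second, which changed by -0.12 ± 0.09 (SE, n = 3 per diet, adjusted p = 0.663). The source of the bright signal was not tested.

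The essential myosin light chain of fast fibres, Myl1, was 5.05, 5.12 and 5.29 in ND and 6.21, 4.56 and 4.99 in HFD hearts. Tropomyosin 2 (Tpm2), found in skeletal and smooth muscle, was 2.21, 2.23 and 2.68 in ND and 3.31, 2.02 and 2.62 in HFD hearts. For both genes HFD 1 was the highest and HFD 2 the lowest of the 6 hearts, so the ND hearts lay between them and the mean difference was small beside the spread (0.10 ± 0.41 for Myl1 and 0.27 ± 0.33 for Tpm2, SE, n = 3 per diet). Both changes turned negative without HFD 1, and that of Myl1 also within row 2 (-0.16). A second probe of each gene gave the same extremes. Several markers of atrial muscle, such as Myl7, Sln and Nppa (SE 2.17, 2.62 and 0.90), also spread widely. Others of that list, such as Cav1, Nr2f2 and Tbx5 (SE 0.10, 0.21 and 0.31), spread less. The mean of the 9 tested, centred on the ND mean, was -0.84, -0.11 and 0.95 in ND and 1.30, -2.66 and 0.60 in HFD hearts, and their summed linear level ran from 211 to 1014 in ND and from 65.7 to 1203 in HFD hearts. The 8 smooth muscle markers tested gave -0.06, -0.16 and 0.22 in ND and 1.11, -0.32 and 0.16 in HFD hearts, with summed levels of 125 to 146 and 126 to 281, and 0 of the 8 reached the unadjusted limit. By the centred mean HFD 1 was thus highest and HFD 2 lowest in both lists, as in Myl1 and Tpm2, while by summed level ND 2 was the lowest for smooth muscle, and the part of these cells in the 2 genes was not tested. For Tnnt1 and Tnnc2 HFD 2 was also the lowest of the 6 hearts, while HFD 1 was below all ND hearts. Among the HFD hearts the highest was HFD 1 for Tnnt1 (3.34) and HFD 3 for Tnnc2 (-2.14). The part of atrial and smooth muscle cells in Tnnt1 and Tnnc2 was not tested.

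**Figure D4:**
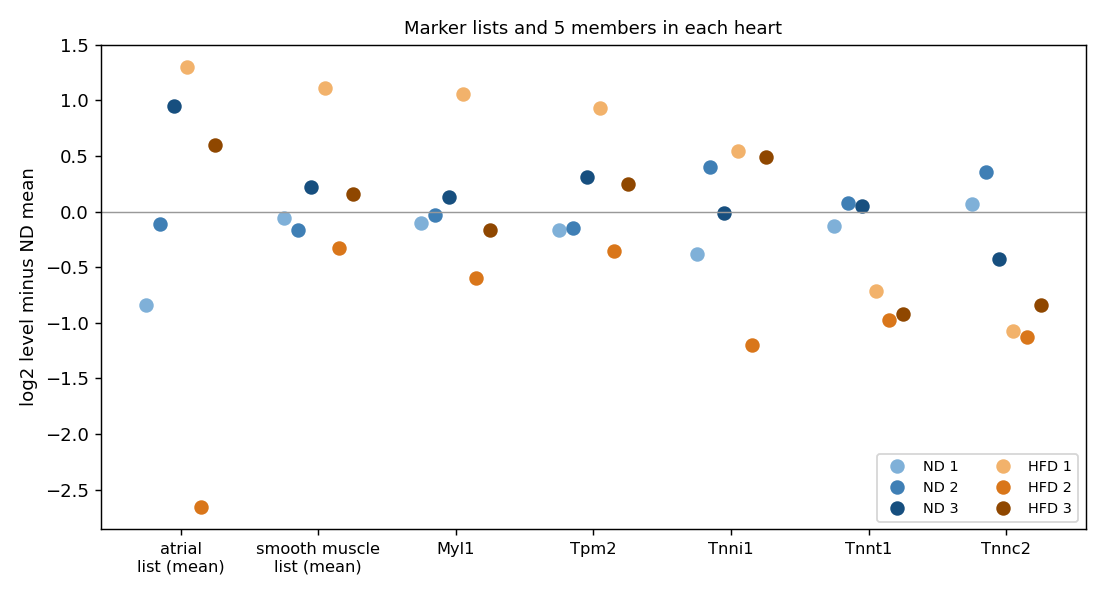
Level in each heart minus the ND mean (log2) for the mean of 9 atrial and of 8 smooth muscle markers and for 5 members. HFD 1 is high and HFD 2 low for both lists, Myl1, Tpm2 and Tnni1, while all 3 HFD hearts lie below the ND hearts for Tnnt1 and Tnnc2.

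Among the tropomyosins, the brightest of 5 Tpm1 probes gave -0.14 ± 0.09 (SE, n = 3 per diet, adjusted p = 0.629), and the other 4 lay between -0.01 and 0.18. Tpm1 is the main cardiac tropomyosin, and all 5 probes, of which the brightest and another share bases, had overlapping diets. The slow tropomyosin gene Tpm3, which non-muscle cells also use, was nearly the same in both diets (-0.0016 ± 0.0733, SE, n = 3 per diet). On the thin filament, the 2 tested probes of nebulin (Neb), the ruler of the skeletal thin filament, gave -0.02 and -0.42, both with overlap, and its cardiac relative nebulette (Nebl) gave 0.19 ± 0.10 (SE, n = 3 per diet, adjusted p = 0.545).

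At the Z-disc, where thin filaments of neighbouring sarcomeres meet, Myoz2, the calsarcin of heart and slow fibres, was 7.44, 7.42 and 7.36 in ND and 7.14, 7.27 and 7.08 in HFD hearts. The diets did not overlap, and the log2 fold change was -0.24 ± 0.08 (SE, n = 3 per diet; limma, adjusted p = 0.330) and -0.33 within row 2. The unadjusted call was lost without ND 1, ND 2, HFD 1 or HFD 3. The skeletal calsarcin Myoz1 was -3.32, -3.13 and -3.32 in ND and -3.61, -2.84 and -2.39 in HFD hearts, so HFD 1 was below and the other HFD hearts above all ND hearts (0.31 ± 0.30, SE, n = 3 per diet, adjusted p = 0.738). Within row 2 the Myoz1 change was 0.86, past the unadjusted limit in the higher direction. Cardiac alpha-actinin (Actn2), which cross-links actin at the Z-disc, gave -0.09 ± 0.08 (SE, n = 3 per diet, adjusted p = 0.721).

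Muscle creatine kinase (Ckm), which regenerates ATP at the myofibril, was the shared gene with the lowest p. Its level was 6.74, 6.75 and 6.59 in ND and 6.27, 6.55 and 6.46 in HFD hearts, without overlap but with only a small step between ND 3 and HFD 2. The log2 fold change was -0.27 ± 0.10 (SE, n = 3 per diet; limma, adjusted p = 0.387) and -0.23 within row 2. The unadjusted call was lost within row 2, with the replicate number as a block (adjusted p = 0.470), with no filter on dim probes, with the methods' t-test and without ND 1, ND 2, HFD 1 or HFD 3. Of the other shared genes, desmin (Des), the intermediate filament of muscle, and Xirp2, an actin-binding protein of the intercalated disc, were lower in every HFD heart than in any ND heart without reaching the limit (-0.15 ± 0.07 and -0.17 ± 0.09, SE, n = 3 per diet). Titin (Ttn), the molecular spring, gave -0.13 in its brightest probe and -0.16 to 0.02 in the other 3. Within row 2 the brightest Ttn probe gave -0.32. Tcap, Csrp3, Ldb3, Lmod2, Myom1 and Myom2 ranged from -0.25 to -0.10, and Xirp1 gave 0.03. Thus 10 of the 11 shared genes, each by its brightest probe, were below 0, against 52.0% of all probes tested. The 1 shared probe at the unadjusted limit made up 6.67% of those tested, near the 6.63% of all probes that were lower.

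Of 34 other sarcomere and Z-disc genes, all tested, 25 were lower and 9 higher in HFD, with a median of -0.07. At the unadjusted limit 7 were lower, among them Acta1, Ankrd2, Capzb, Myot, Synpo2l and Tmod4, and 0 higher, and none passed the adjustment. Over all probes tested, 6.63% were lower and 5.24% higher at that limit. Ankrd2, a stretch-responsive ankyrin repeat protein of slow fibres, had a log2 fold change past 2-fold in size (-1.15 ± 0.27, SE, n = 3 per diet, adjusted p = 0.248). Skeletal alpha-actin (Acta1) gave -0.92 ± 0.16 (SE, n = 3 per diet, adjusted p = 0.156) and myotilin (Myot) -0.92 ± 0.22 (SE, n = 3 per diet, adjusted p = 0.252), both singled out after their values were seen. Of 11 other skeletal muscle genes well above background in all 6 hearts, 1 was lower at the unadjusted limit, the muscle enolase Eno3 (-0.27 ± 0.08, SE, n = 3 per diet, adjusted p = 0.296), and 0 were higher. The acetylcholine receptor subunit Chrna1 was well above background in 3 ND hearts and in 0 HFD hearts. It entered the test only through the diet in which it was high, so it is left out of that count and no p is given for it. Its level was at least 2.34-fold lower in HFD, a bound set by the dimmest probes well above background on those arrays.

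Markers of other cells were compared in the same way. All 8 erythroid markers tested were lower in HFD (median -0.52), 6 of them at the unadjusted limit, and their summed linear level ran from 1155 to 1350 in ND and from 831 to 1061 in HFD hearts. Epb4.2 of that list was well above background in 1 heart and was not tested. Of 6 tested brown adipocyte markers 2 were higher at the unadjusted limit and 0 lower, although 4 of the 6 were below 0 (median -0.09) and the summed levels overlapped (1213 to 1275 in ND and 1100.4 to 1308 in HFD hearts). Ucp1, which defines the type, was well above background in 1 of the 6 hearts. The part of these cells in the lower skeletal isoforms was not tested. Of the 12 cardiomyocyte markers, 1 was higher and 0 were lower at the unadjusted limit. Beside these marker counts, the shares over all probes tested were 6.63% lower and 5.24% higher.

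The promoters of Tnnt1, Tnnc2 and Tnnc1, the 3 members whose unadjusted call held at every omission of a heart, are shown for the 250 bases before the transcription start (RefSeq, GRCm38.p6), each 5′ to 3′ on the strand of the gene. Capitals mark matches on either strand to the TATA box and to the MCAT, MEF2 and CArG elements, which muscle transcription factors are known to bind.
Tnnt1 promoter: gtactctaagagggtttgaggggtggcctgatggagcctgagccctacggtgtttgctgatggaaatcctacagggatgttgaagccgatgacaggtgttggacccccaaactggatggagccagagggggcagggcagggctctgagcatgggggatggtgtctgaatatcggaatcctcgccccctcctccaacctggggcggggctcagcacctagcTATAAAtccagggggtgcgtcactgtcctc
Tnnc2 promoter: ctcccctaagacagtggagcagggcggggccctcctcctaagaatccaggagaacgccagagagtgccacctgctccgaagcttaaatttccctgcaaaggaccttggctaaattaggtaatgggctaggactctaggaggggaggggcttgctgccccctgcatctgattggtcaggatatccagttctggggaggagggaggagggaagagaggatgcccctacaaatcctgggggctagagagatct
Tnnc1 promoter: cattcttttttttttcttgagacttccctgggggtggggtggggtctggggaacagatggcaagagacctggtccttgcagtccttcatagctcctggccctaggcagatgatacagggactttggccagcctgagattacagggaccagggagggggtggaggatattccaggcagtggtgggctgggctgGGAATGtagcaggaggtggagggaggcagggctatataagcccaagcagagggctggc
They lie at chr7:4515976-4516225 (- strand), chr2:164779735-164779984 (- strand) and chr14:31208062-31208311 (+ strand). The Tnnt1 promoter held a TATA match and the Tnnc1 promoter an MCAT match, while the Tnnc2 promoter held no match to these 4 elements in its window. The search was made in windows of 300 bases around the start, which were given for 31 of the 39 members (40 promoters, since some genes have several). The TATA box was searched only as the string TATAAA, on either strand and anywhere in the window. That string was found in 6 of 15 promoters of skeletal isoforms, in 0 of 15 of cardiac isoforms and in 0 of 10 of shared genes. It was in 13.6% of all 32851 promoters. Other spellings, such as the tatataa of the Tnnc1 promoter, were not counted, so these counts do not show which promoters lack a TATA box. The MCAT element, searched as CATTCC, was in 11 of the 40 (27.5%, against 14.7% of all), the MEF2 element in 7 (17.5%, against 3.19%), the CArG element in 6 (15%, against 1.63%) and the E-box CANNTG in 34 (85%, against 72.3%). MEF2 and TATA matches can overlap, promoters of 1 gene share bases, and these counts describe letters and not binding.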

How the data were processed

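Total RNA of 3 ND and 3 HFD hearts was hybridised to 1 single-colour (Cy3) Agilent mouse array each. The authors' deposited intensity values are linear. Agilent Feature Extraction 10.7 (10.7.1.1 per the file headers) had removed background and spatial trends array by array, with no normalization between arrays. The authors also deposited a log2 table of the same arrays, with a median of 4.56 per column. Its scale and direction followed each array's own intensities (Spearman's rho of at least 0.9999, at most 0.954 with another array) and its values a quantile normalization of them, a step the methods do not name. It served as an alternative. The files place probes on mm9 and name genes as the array was designed.

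Control spots and outlier spots (127 to 190 per array) were left out, spots of 1 probe averaged, and the 75th percentile of the log2 intensity over all spots other than controls (453 to 544 as intensity) was subtracted. A probe entered the test when it was well above background in every heart of at least 1 diet and measured in at least 2 hearts of each. The diets were compared with limma 3.58.1 (R 4.3.3; lmFit, eBayes, two-sided, no covariate) and Benjamini-Hochberg adjustment over 27590 probes. A gene is given by its brightest tested probe. Other R packages were jsonlite 2.0.0, data.table version 1.17.8 and statmod 1.5.0. Figures used Python 3.11.15 and matplotlib 3.10.9. Code was tested on simulated data. Only 3 hearts per diet limit the precision. No arrays held the same values (r of 0.983 to 0.989 within a diet), and since the labels do not name litters or cages, p-values measure the spread between these 6 hearts.

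Members, classes, pairs and marker lists were chosen with earlier results of these data known. Hearts are listed one by one for members at an unadjusted p below 0.05 or a log2 change of at least 0.5, for the troponins, and for 3 genes (Myl1, Tpm2, Myoz1) chosen after their values were seen. Of list genes, those at an unadjusted p below 0.05 and 2-fold may be named with values, and others named were chosen after their values were seen. Lists and classes have no test of their own, and list members at 2 places count in each. The alternatives were quantile normalization, normexp (offset 50), no filter, probes well above background in all 6 hearts, the authors' table, the methods' t-test, robust variances with a trend, the replicate block, array weights, the slide row, outlier spots kept, averaged probes, each heart left out and, added after the data were seen, the percentile over probes. Promoters and their motifs came from RefSeq.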

Additional observations from a re-analysis of the deposited data

How the results depend on the processing

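The number of member probes past the adjustment, 0, became 1 (Tnnt1) under normexp and 1 under robust variances with an intensity trend. Leaving out 1 heart at a time, the unadjusted count of 7 ranged from 3 (without ND 1) to 10 (without HFD 2), with 4 without HFD 3. The methods' t-test called 5 at the unadjusted limit (Des and 4 of the 7) and 0 after Benjamini-Hochberg adjustment. The count of probes without overlap, 8, ranged from 10 (without HFD 3) to 25 (without HFD 2), where fewer hearts make overlap rarer by construction, and it was 13 without ND 1 and 15 without ND 3. The median of the cardiac isoforms, -0.11, was -0.21 with the slide row as a covariate, -0.0604 with quantile normalization and -0.0619 with the authors' table, and that of the shared genes, -0.15, was -0.0888 and -0.0900 with the latter pair. The median of the skeletal isoforms was -0.0555 with all hearts and -0.0419 with normexp. When a heart was left out, it ranged from -0.36 (without HFD 1) to -0.0623 (without ND 3), and was -0.25 without ND 1. The skeletal minus cardiac difference ranged from -0.26 (without HFD 1) to 0.12 (without HFD 2) and, against 0.06, was -0.0812 with quantile normalization, -0.0813 with the authors' table, -0.0737 with no filter and -0.0738 with averaged probes. The number of pairs without overlap, 2, was 1 with normexp and ranged from 2 to 5 when a heart was left out (4 without ND 2 or HFD 1, 5 without HFD 2). Tnnt2 changed sign with quantile normalization (0.0546), with the authors' table (0.0471) and on leaving out a heart (-0.0862 to 0.0715). Tnni1 changed sign with normexp (0.0185), array weights (0.16), the slide row (0.49) and on leaving out a heart (-0.36 to 0.52). The causes were not tested. In their brightest probe, 24 of the 34 tested genes changed sign under none of the alternatives run other than averaged probes. Besides Tnnt2 and Tnni1, Tpm3, Xirp1, Neb, Myl1 and Mylk3 changed sign with all hearts kept, and Mybpc1, Myom2 and Tpm2 only when a heart was left out.

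Replicate numbers did not pair the hearts: deviations of same-numbered hearts correlated at -0.15, 0.15 and 0.19. With the replicate block, 7 member probes reached the unadjusted limit and 0 the adjusted one, with Tnnt3 among them and Ckm not.

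Signals near background, such as Tnni1, Tnnt3, Myoz1 and Mybpc1, give the least certain changes, and for the 5 genes not tested a difference was not detectable.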
